A study of Mus musculus with 6 samples.

Results

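A set of 10 transcription factor genes of vascular and liver sinusoidal endothelium was followed through 6 RNA libraries from mouse cultures prepared as hepatic stellate cells. They are the ETS factors Erg and Fli1, the SoxF factors Sox7, Sox17 and Sox18, the basic helix-loop-helix factors Tal1 and Lyl1, the GATA factor Gata4, the basic leucine zipper factor Maf and the homeobox factor Prox1. The members were a given list of symbols, matched to the symbol column of the count files, and all 10 were found among 40879 gene symbols. The primary cells came from male wild-type mice and were kept for 24 h either with vehicle (3 libraries) or with APB-R3 (3 libraries), an engineered IL-18 binding protein, to ask whether it attenuates stellate cell activation. The dose of APB-R3 is 150 µg/ml in the series text but 150 µg/kg in the protocol of the samples, which leaves its unit uncertain. No other difference between the groups is stated, no strain, age or pooling of animals is given, and nothing says that replicates are separate animals or cultures, so every p-value rests on a spread between libraries that may be technical.

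Endothelial cells hold their identity through a small circuit of such factors. ETS factors bind GGAA cores in nearly all endothelial enhancers, SoxF factors act beside them in vessel and arterial development, and Tal1 and Lyl1 pair with E-proteins and with Lmo2 and GATA factors. In the liver, Gata4 and Maf are known to keep the sinusoidal type of endothelium, with its pores and scavenger receptors, apart from the continuous capillary type. Prox1 is the master factor of lymphatic endothelium and is also made by hepatocytes.

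The labelled cell type was checked against its markers first. Levels are given in CPM (a gene's counts relative to the total of its library, scaled by TMM factors), from libraries made with a kit that primes at the 3' end of messenger RNA and reads 1 fragment per transcript, so that levels of different genes were compared without scaling by length. All 20 pan-endothelial markers had counts, with a median of 361 CPM and a sum of 8083 to 8532 CPM in vehicle and 7432 to 8361 CPM in APB-R3. The 22 stellate cell markers had a median of 8.98 CPM and sums of 1113 to 1293 and 1060 to 1165 CPM. Of this list, Lrat (1.69 CPM), Gfap (0.0643 CPM), Ngfr (0.131 CPM) and Des (4.71 CPM) were low but were picked after their values were seen. The matrix gene Dcn was at 308 ± 23.6 CPM and the contractile gene Tagln at 237 ± 47.3 CPM (SD, n = 6). Fibroblasts or smooth muscle also make these. The matrix gene Lum was low, at 2.8, 1.4 and 1.6 CPM in vehicle and at 0.85, 0.47 and 0.29 CPM in APB-R3. Its log2 fold change was −1.87 (SE 0.70, unadjusted p = 0.014, edgeR adjusted p = 0.9998), on 3 to 29 counts per library. Most levels of the 22 genes are not given here. Acta2, smooth muscle actin, was at 133, 132 and 129 CPM in vehicle and at 104, 109 and 79.2 CPM in APB-R3. These groups did not overlap (log2 fold change −0.43, SE 0.11, unadjusted p = 0.0008, edgeR adjusted p = 0.9998, from 0.0523 to 1.0 over the alternatives), as was so for 4.38% of all tested genes in that direction. Of the 19 stellate markers tested, 2 were lower without overlap (Lum and Acta2) and 1 higher (Hhip). The shares of all tested genes were 4.38% lower and 4.43% higher. An unadjusted edgeR p under 0.05 was found in 3 of the 19, against 3.33% of all tested genes, and 0 passed. The 16 macrophage markers summed to 483 to 706 and 561 to 792 CPM. Cd5l was at 107 ± 32.7, Lyz2 at 91.1 ± 16.3 and Marco at 36.9 ± 11.4 CPM (SD, n = 6). Clec4f, at 1.57 CPM, and Timd4, at 0.0881 CPM, were low but were picked from the same list after their values were seen. The 13 hepatocyte markers summed to 98.2 CPM in vehicle replicate 2 and to 9.30 to 17.9 CPM elsewhere. The data thus go against a purely stellate label, and every level below is that of a mixed culture, in which fewer cells of a type and less RNA per cell cannot be told apart.

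The promoter windows of Tal1 and Lyl1 are shown because these related genes were read at levels that differed 5.45-fold. A RefSeq window of the build GRCm38.p6, of 300 bases around a start, was at hand for 4 of the 10 genes (Erg, Tal1, Lyl1 and Prox1), and the most upstream start of each was taken. The Tal1 window is chr4:115056176-115056475 on the plus strand and the Lyl1 window is chr8:84701207-84701506 on the plus strand. Capitals mark matches, on either strand, to the letters CCGGAA for ETS factors, AGATAA for GATA factors, CATCTG for an E-box, ACAAT for SOX factors or TGCTGA for a MAF half-site, and no matches overlapped within these windows.
Tal1: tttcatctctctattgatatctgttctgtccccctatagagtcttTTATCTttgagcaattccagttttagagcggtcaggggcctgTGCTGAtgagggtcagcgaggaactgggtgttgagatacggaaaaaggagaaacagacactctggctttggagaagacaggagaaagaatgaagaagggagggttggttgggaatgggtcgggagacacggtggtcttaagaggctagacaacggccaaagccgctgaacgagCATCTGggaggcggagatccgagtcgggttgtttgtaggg
Lyl1: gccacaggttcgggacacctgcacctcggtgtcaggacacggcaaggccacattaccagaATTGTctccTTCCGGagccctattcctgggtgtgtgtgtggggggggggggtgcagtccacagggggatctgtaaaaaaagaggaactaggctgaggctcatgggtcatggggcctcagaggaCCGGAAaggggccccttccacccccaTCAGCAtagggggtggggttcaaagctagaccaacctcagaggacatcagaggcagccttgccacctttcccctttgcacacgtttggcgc

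Over 32851 RefSeq windows of the same length, 14.9% held CCGGAA, 11.2% AGATAA, 17.2% CATCTG, 31% ACAAT and 19.5% TGCTGA. The Tal1 window held the GATA motif (bases 46 to 51), the MAF half-site (88 to 93) and the E-box (261 to 266), counted from 1 at the 5′ end of the window. The Lyl1 window held CCGGAA at 2 places (70 to 75 and 184 to 189), the SOX motif (61 to 65) and the MAF half-site (210 to 215). The Erg window held 1 match, the MAF half-site, and the Prox1 window 1, the E-box. These are matches of letters and not measured binding sites, and reads from the 3' end do not show which start was used.

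The 10 genes spanned a 41.1-fold range of mean level. Sox17 stood highest at 295 ± 30.6 CPM (SD, n = 6), above 95.9% of the 12776 tested genes. Fli1 followed at 267 ± 39.4 CPM and Maf at 256 ± 31.4 CPM, and the ranges of these 3 genes overlapped. Erg came next at 128 ± 12.6 CPM, apart from its neighbours on both sides. A middle group of Sox7 (66.7 ± 7.05 CPM), Sox18 (66.5 ± 29.2 CPM), Tal1 (53.7 ± 5.36 CPM) and Gata4 (53.4 ± 5.26 CPM) overlapped from one gene to the next. Lyl1 (9.84 ± 2.02 CPM) and Prox1 (7.17 ± 1.49 CPM) were lowest and overlapped each other, each in the lower part of the tested genes, with 33.4% and 27.5% of them below. Summed, the 10 genes took 1184 to 1315 CPM of a vehicle library and 1002 to 1301 CPM of an APB-R3 library.

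**Figure D1:**
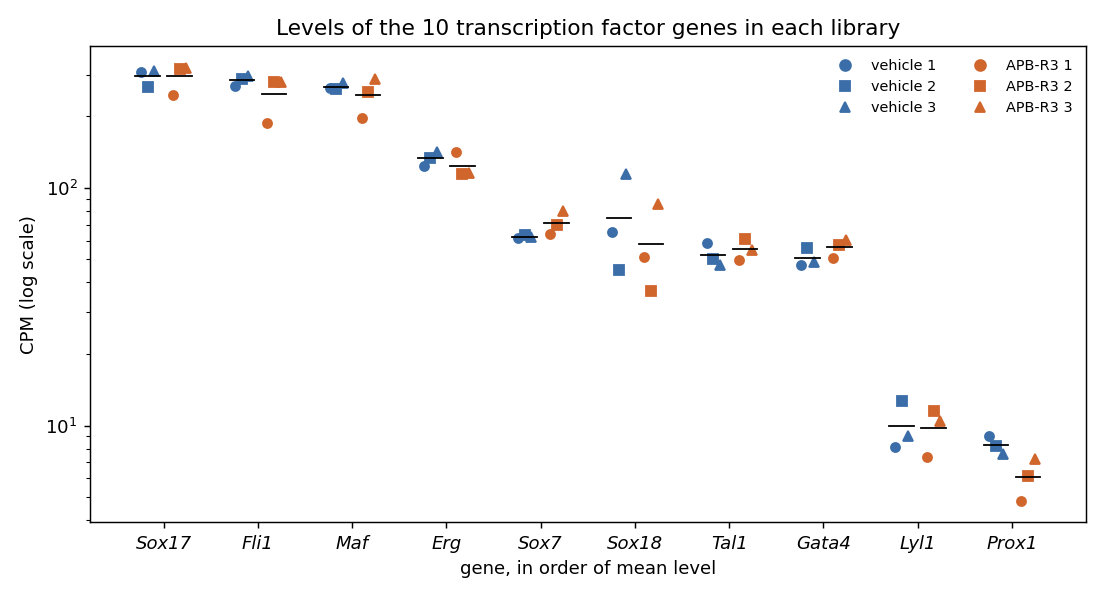
CPM of each gene (log axis, in order of mean level) in the 3 vehicle libraries (blue) and the 3 APB-R3 libraries (orange), with 1 point per library, a symbol for each replicate number and a black line at each group's mean. Sox17, Fli1 and Maf lie between 188 and 321 CPM, Lyl1 and Prox1 between 4.83 and 12.6 CPM, and the points of Sox18 spread 3.12-fold.

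Between vehicle and APB-R3, none of the 10 genes passed edgeR's quasi-likelihood test, and each had an adjusted p of 0.9998. Of all 12776 tested genes, 0 passed (0%), and 0 passed with DESeq2 and with limma-voom. At an unadjusted p under 0.05 there were 0 of the 10 genes against 3.33% of all tested genes (425), and 1 to 3 of the 10 in 7 of the 14 alternative settings. In those 7 settings, from 368 of 13129 tested genes (without vehicle replicate 2) to 674 of 13137 (without APB-R3 replicate 3) had such a p. A log2 fold change below 0 was seen in 7 of the 10 genes (with 49.3% of all tested genes below 0) and above 0 in 3, with a median of −0.06 beside 0.003 over all tested genes. This tilt turned without APB-R3 replicate 1, where 6 of the 10 were higher and the median was 0.06. The groups did not overlap in 2 of the 10 genes, against 8.81% of all tested genes. These were Sox7 (higher, with 4.43% of all tested genes) and Prox1 (lower, with 4.38%). Over the 14 alternative settings, 0 of the 10 genes passed in any. The 7 genes above 40 CPM other than Sox18 were Erg, Fli1, Sox7, Sox17, Tal1, Gata4 and Maf. Their 95% intervals of the log2 fold change, each for 1 gene alone, lay between −0.43 and 0.42. Wider intervals were those of Sox18 (−0.90 to 0.15), Lyl1 (−0.54 to 0.50) and Prox1 (−1.01 to 0.13).

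**Figure D2:**
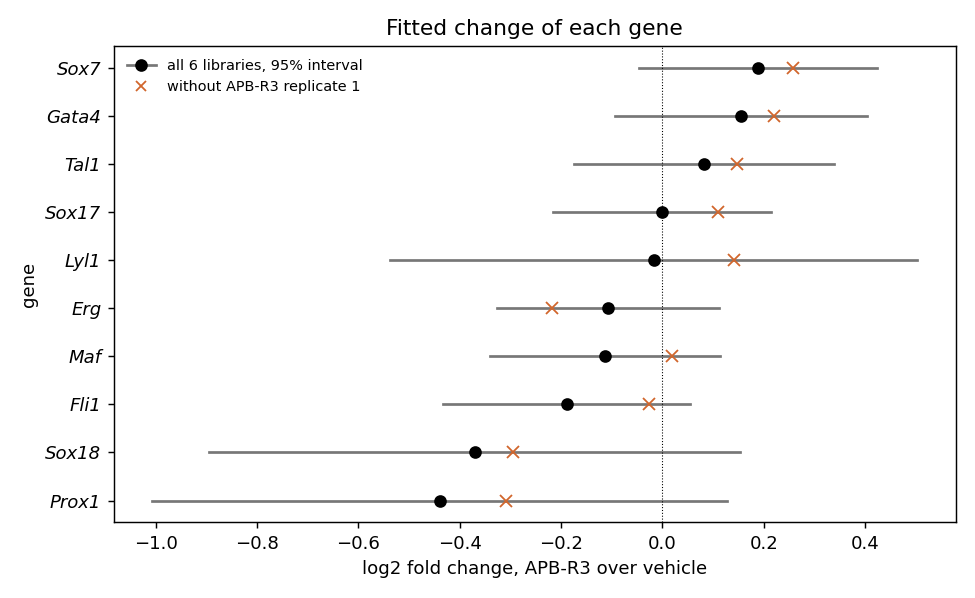
Log2 fold change of each gene in APB-R3 over vehicle from the edgeR fit (black point) with its 95% interval (grey line), and the value without APB-R3 replicate 1 (orange cross). All 10 intervals include 0, from the widest of Prox1 (−1.01 to 0.13) to that of Sox17 (−0.22 to 0.21), and the crosses of Sox17, Lyl1 and Maf lie on the other side of 0 from their points.

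Of the ETS factors, Erg, which maintains endothelial junctions and quiescence, was at 124, 134 and 142 CPM in vehicle replicates 1 to 3. In APB-R3 it was at 142, 114 and 115 CPM. The first APB-R3 library was close to the highest vehicle library, and the other two were below every vehicle library. The log2 fold change of Erg was −0.11 (SE 0.11), −0.22 without APB-R3 replicate 1 and −0.05 to −0.06 without APB-R3 replicate 2, APB-R3 replicate 3 or vehicle replicate 3. Fli1, an early factor of endothelial and blood cells, was at 269.6, 287 and 297 CPM in vehicle. In APB-R3 it was at 188, 280.2 and 279 CPM, so that 1 library was low and the other two lay within the vehicle range. Its log2 fold change was −0.19 (SE 0.12), and −0.03 without APB-R3 replicate 1, in which Fli1 was 0.667 times its mean in the other 5 libraries. Fli1 was thus at its lowest in a library where Erg was near its highest. Fli1 took 68.5%, 68.2% and 67.6% of the counts of the pair in vehicle and 57.1%, 71.0% and 70.8% in APB-R3. The difference of the group means was −1.84 percentage points (exact two-sided permutation p = 1.0, adjusted p = 1.0 over 6 shares, n = 3 each), and it turned to 2.78 without APB-R3 replicate 1.

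The SoxF factors differed in level and in steadiness. Sox17, a factor of arterial identity, was at 308, 267 and 310.2 CPM in vehicle and at 247, 316 and 321 CPM in APB-R3. Its log2 fold change was −0.001 (SE 0.10), with 0.11 without APB-R3 replicate 1, its lowest library. Sox7, expressed in early vascular and blood progenitors, was at 61.5, 63.2 and 62.5 CPM in vehicle and at 63.8, 69.6 and 79.9 CPM in APB-R3. All 3 APB-R3 libraries were above all 3 vehicle libraries, though the lowest of them lay within 1 SD (0.850 CPM, vehicle) of the highest vehicle library. The log2 fold change of Sox7 was 0.19 (SE 0.11), with 0.10 without APB-R3 replicate 3, its highest library. Sox18, which drives lymphatic and vascular development and induces Prox1 in lymphatic precursors, was at 65.3, 45.0 and 115 CPM in vehicle. It was at 51.3, 36.8 and 85.8 CPM in APB-R3. The groups overlapped, and in both groups the library numbered 2 was lowest and the library numbered 3 highest, with a 2.55-fold range within vehicle and 2.33-fold within APB-R3. The log2 fold change of Sox18 was −0.37 (SE 0.25), 0.07 without vehicle replicate 3, its highest library, −0.12 without APB-R3 replicate 2, −0.63 without vehicle replicate 2 and −0.77 without APB-R3 replicate 3.

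Of the summed counts of the 3 SoxF genes, Sox17 held 69.1% ± 4.02 (SD, n = 6), Sox7 15.7% ± 1.84 and Sox18 15.2% ± 5.08. The Sox18 share was 15.0%, 12.0% and 23.5% in vehicle and 14.2%, 8.71% and 17.6% in APB-R3. The Sox7 share was 14.1%, 16.9% and 12.8% in vehicle and 17.6%, 16.5% and 16.4% in APB-R3. The shares of all 3 genes overlapped between the groups, with exact two-sided permutation p-values of 0.3 for Sox7, 0.9 for Sox17 and 0.5 for Sox18 (n = 3 each). With 3 against 3 libraries this test cannot go below 0.1.

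**Figure D3:**
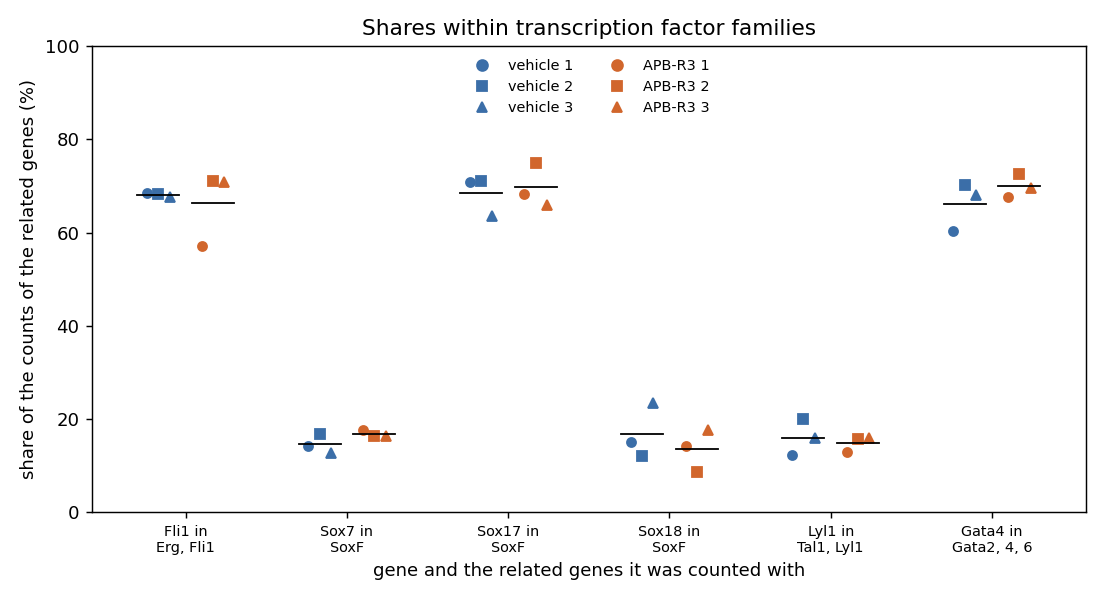
Share of the counts of related genes taken by 1 of them (percent, axis from 0 to 100) in each library, with vehicle in blue, APB-R3 in orange, a symbol for each replicate number and a black line at each group's mean. SoxF stands for Sox7, Sox17 and Sox18 together. The Fli1 share of APB-R3 replicate 1 (57.1%) lies below those of the other 5 libraries (67.6% to 71.0%), and all 6 shares overlap between the groups.

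Tal1, which specifies blood and endothelial precursors, was at 58.6, 50.4 and 47.6 CPM in vehicle. In APB-R3 it was at 49.6, 61.1 and 54.8 CPM, and the groups overlapped, with a log2 fold change of 0.08 (SE 0.12). It ran from 0.0023 without APB-R3 replicate 2 and 0.02 without vehicle replicate 3 to 0.15 without APB-R3 replicate 1 and 0.17 without vehicle replicate 1. Lyl1, its close relative, was at 8.13, 12.6 and 9.00 CPM in vehicle and at 7.37, 11.5 and 10.4 CPM in APB-R3. These levels rest on 61 to 132 counts per library, and the log2 fold change was −0.02 (SE 0.25), with 0.14 without APB-R3 replicate 1, 0.20 without vehicle replicate 2 and −0.15 to 0.36 over all alternatives. Lyl1 held 15.5% ± 2.78 (SD, n = 6) of the counts of the pair, the minor part in every library. Lyl1 lies within the Nfix gene on the opposite strand in GENCODE M21, with overlap of exons. Nfix had 5603 counts over the 6 libraries, and the strand setting of the counting is not given, so the Lyl1 level is uncertain.

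Among the factors of sinusoidal type, Gata4 was at 47.5, 55.7 and 48.6 CPM in vehicle and at 50.6, 57.8 and 60.3 CPM in APB-R3. Vehicle replicate 2 lay within the APB-R3 range, and the log2 fold change was 0.15 (SE 0.12), with 0.10 without APB-R3 replicate 3 and 0.23 without vehicle replicate 2. Stellate cells are known to make Gata4 too, and the part of either cell type was not tested. Gata4 was the leading GATA gene of the 3 counted here, with 68.0% ± 4.15 of their counts (SD, n = 6). Gata2, the main GATA factor of most vascular endothelium, was at 16.7 ± 2.94 CPM, and Gata6 was at 8.39 ± 1.15 CPM (SD, n = 6). The Gata4 share was 66.2% ± 5.17 in vehicle and 69.9% ± 2.44 in APB-R3 (exact two-sided permutation p = 0.5, n = 3 each).

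Maf was at 263, 261 and 276 CPM in vehicle and at 197, 254 and 288 CPM in APB-R3. The first APB-R3 library was the lowest, at 0.735 times the mean of the other 5, and APB-R3 replicate 3 was the highest of all. The log2 fold change was −0.11 (SE 0.11), and 0.02 without APB-R3 replicate 1. The macrophage marker sums are given above, and the part of macrophage RNA in the levels of Maf, Fli1 and Lyl1 was not tested.

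Prox1 was at 9.00, 8.23 and 7.58 CPM in vehicle and at 4.83, 6.15 and 7.22 CPM in APB-R3. Every APB-R3 library was lower than every vehicle library, the closest of them by less than the spread within either group. The log2 fold change was −0.44 (SE 0.27), with a 95% interval from −1.01 to 0.13, on 40 to 94 counts per library. It was −0.31 without APB-R3 replicate 1, its lowest library, and −0.58 without APB-R3 replicate 3. The hepatocyte marker sum, highest in vehicle replicate 2, is given above, and the part of hepatocyte RNA in the Prox1 levels was not tested. Other lymphatic genes were read beside it from a list of 9. Of these, 7 were tested, 6 were higher and 1 lower, and 0 passed. Nrp2, a co-receptor for VEGF-C that veins also make, was at 701 ± 37.5 CPM and Flt4, the VEGF-C receptor, which liver sinusoids also make, at 159.8 ± 18.8 CPM (SD, n = 6). Pdpn, the glycoprotein podoplanin, had 14.4 CPM in APB-R3 replicate 1 and 2.61 to 8.69 CPM elsewhere. Its log2 fold change was 0.42 (SE 0.39), and −0.17 when that library was left out. Fgfr3, a fibroblast growth factor receptor, was at 1.15 to 3.16 CPM, and its log2 fold change was 0.45 (SE 0.51), or 0.96 without vehicle replicate 2. The lymphatic chemokine gene Ccl21a had 0 counts in all libraries.

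APB-R3 replicate 1, which had the lowest total of 8323809 counts against 10074669 to 10792531 in the other 5, was the lowest library for 5 of the 10 genes, namely Fli1, Sox17, Lyl1, Maf and Prox1. The share of all tested genes lowest in this library was not counted, and a part of its lower total was not tested. In this library the pan-endothelial sum was 0.894 times its mean in the others, against 0.667 times for Fli1. The spread between replicates was set against counting error. The chi-square per degree of freedom of the counts within groups was 1.38 for Prox1, 4.04 for Gata4, 4.47 for Sox7, 5.06 for Lyl1 and 6.06 for Tal1. It was 12.2 for Erg, 36.6 for Sox17, 39.2 for Maf, 52.1 for Fli1 and 147 for Sox18, where counting alone gives about 1. Each value is the spread between replicates in units of counting error. At the same relative spread it grows with the number of counts, so it does not rank the genes by steadiness. Counting error here takes each read as 1 molecule, and nothing says that reads were reduced to single molecules.

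**Figure D4:**
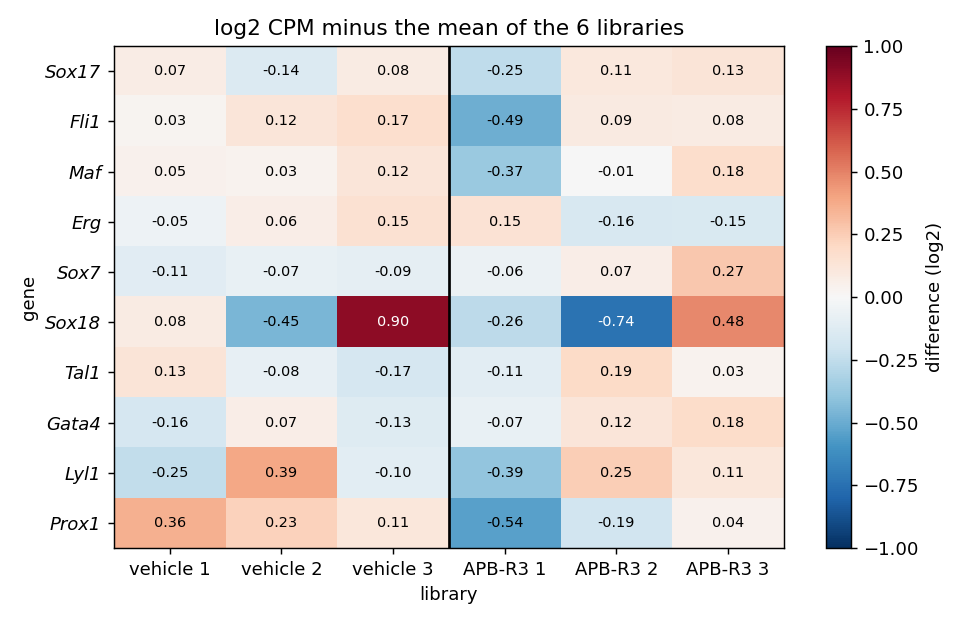
Difference of each gene's log2 CPM in a library from its mean over the 6 libraries (colour and printed value, log2 units), with vehicle left and APB-R3 right of the black line. Fli1 (−0.49), Maf (−0.37) and Prox1 (−0.54) are lowest in APB-R3 replicate 1, and Sox18 runs from −0.74 to 0.90 with both libraries numbered 3 high.

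The genes were then set against the endothelial content of each library, as the log2 ratio of their counts to the summed counts of the 20 pan-endothelial markers. The groups did not overlap in 3 of the 10 genes, against 8.57% of all tested genes by this measure (6.14% higher and 2.43% lower). Sox7 stood at −7.04, −7.05 and −7.09 in vehicle and at −6.86, −6.89 and −6.71 in APB-R3, a difference of 0.24. For Gata4 the log2 ratios were −7.41, −7.23 and −7.46 in vehicle and −7.20, −7.15 and −7.12 in APB-R3, a difference of 0.21. Those of Prox1 were −9.81, −9.99 and −10.1 in vehicle and −10.6, −10.4 and −10.2 in APB-R3, a difference of −0.41. Each of these 3 had the smallest p that 3 against 3 libraries allow, 0.1 (exact two-sided permutation test, n = 3 each), and 0.333 after adjustment over the 10 genes. The other 7 genes overlapped, with differences from −0.29 (Sox18) to 0.14 (Tal1). Against the counts of Cdh5 alone, the junction cadherin gene and 1 of the 20 markers, Sox7 and Prox1 did not overlap between the groups and Gata4 did. For Sox7 and Prox1 p was again 0.1 (exact two-sided permutation test, n = 3 each), and 0.5 after adjustment over the 10 genes. The share of all tested genes was not counted by this measure. The members' counts are the same as above, so this is not separate support.

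Other transcription factors of endothelium gave the context. Of a list of 40, 37 were tested, 15 were higher and 22 lower with a median log2 fold change of −0.03, and 0 passed. The groups did not overlap in 1 of them (Meis1, lower), against 8.81% of all tested genes. Tcf4, an E-protein, at 1489 ± 53.6 CPM, and Sox4, a SoxC factor, at 1167 ± 88.5 CPM (SD, n = 6) were well above all 10 genes. Klf2, the factor induced by blood flow, was at 4.40, 2.77 and 5.59 CPM in vehicle and at 1.81, 1.68 and 3.22 CPM in APB-R3, with a log2 fold change of −0.92 (SE 0.45). As with Sox18, the library numbered 2 was lowest and the library numbered 3 highest in both groups, and the Klf2 groups overlapped. The share of all genes with this order was not counted. Ets2, an ETS factor downstream of Ras signalling, had 189.6 ± 11.5 CPM in vehicle against 166 ± 13.8 CPM in APB-R3 (SD, n = 3 each; log2 fold change −0.19, SE 0.10).

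Partner proteins of these factors did not pass either. Of 16 listed, 15 were tested, 5 were higher and 10 lower with a median of −0.11, and Gfi1b, a repressor of the blood lineages, had 0 counts. Lmo2, the bridge between Tal1 or Lyl1 and GATA factors, had 88.1 ± 1.94 CPM in vehicle against 100.5 ± 10.4 CPM in APB-R3 (SD, n = 3 each; log2 fold change 0.19, SE 0.10). Lmo4, a related LIM-only protein, was at 106, 103 and 96.3 CPM in vehicle and at 129, 123 and 111 CPM in APB-R3. Its groups did not overlap and its unadjusted p was 0.019, with a log2 fold change of 0.25 (SE 0.10). Of all tested genes, 4.43% were higher without overlap and 3.33% had an unadjusted p under 0.05. The groups of Ep300, a coactivator gene, did not overlap either, with APB-R3 lower, as was so for 4.38% of all tested genes. Ldb2, an adaptor that joins LIM-only proteins, was at 146 CPM in APB-R3 replicate 1 and at 194 to 248 CPM elsewhere, low in the same library as Fli1, and its log2 fold change of −0.10 (SE 0.14) turned to 0.09 without it. The coactivator gene Crebbp was at 281 ± 17.8 CPM (SD, n = 6).

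Other genes of endothelium were read in 3 lists of markers, and 0 of them passed in any list. The groups did not overlap in 1 pan-endothelial gene (Tek, lower), 1 sinusoidal gene (Kit, lower) and 0 continuous capillary genes. Of all tested genes, 8.81% did not overlap in either direction and 4.38% were lower without overlap. Pan-endothelial genes were higher in 9 and lower in 11 of 20, with a median log2 fold change of −0.03. Cdh5, the junction cadherin and a classic ETS target, was at 1148 ± 119 CPM and Pecam1 at 934 ± 116 CPM (SD, n = 6). Their log2 fold changes were −0.09 (SE 0.10) and −0.14 (SE 0.10), and −0.0067 and −0.05 without APB-R3 replicate 1. Eng, a co-receptor for BMP ligands, had −0.20 (SE 0.11) and the tight junction gene Cldn5 −0.21 (SE 0.11). Without APB-R3 replicate 1 that of Eng was −0.12, and without vehicle replicate 3 that of Cldn5 was −0.10. Sinusoidal genes, of which 15 of 16 were tested, were higher in 3 and lower in 12 with a median of −0.10. Lyve1, the hyaluronan receptor, had 0.05 (SE 0.09), Oit3 −0.10 (SE 0.10), the scavenger receptor Stab1 −0.13 (SE 0.09) and the netrin gene Ntn4 0.89 (SE 0.61) at 0.861 to 2.83 CPM. Without APB-R3 replicate 1 Lyve1 had −0.02, Oit3 −0.0052 and Stab1 −0.06. Continuous capillary genes, of which 13 of 14 were tested, were higher in 4 and lower in 9 with a median of −0.05. The basement membrane gene Col4a1 had −0.05 (SE 0.08), Esm1 0.01 (SE 0.10), the tetraspanin Cd9 0.27 (SE 0.15) and Vwf, von Willebrand factor, −1.49 (SE 0.72) at 0.121 to 3.06 CPM. Without APB-R3 replicate 1 Cd9 had 0.05 and Esm1 0.07, and without both that library and vehicle replicate 2 Cd9 had −0.09 and Vwf −0.70.

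The genes most like Sox17 in their pattern over the 6 libraries, among 12775 others, were Ccdc71l (Pearson's r = 0.996), Synrg (r = 0.993) and Gm38794 (r = 0.990). This is a description of log2 CPM over 6 libraries that share their depth and scaling. The 3 were picked as the highest of 12775 correlations over few libraries, so their r does not by itself show that the genes vary together. Gm38794 had 68 counts in total. Synrg had 48.1 to 59.2 CPM, Ccdc71l 35.8 to 49.1 CPM and Gm38794, a predicted gene, 0.483 to 1.46 CPM.

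The 3' ends of the 10 genes were compared to see whether related genes could share reads. Of the stretches of 31 bases in the last 500 bases of the coding transcripts in GENCODE M21, 0 were shared between any of the 10 genes. With transcripts of other genes, 12 of 1540 stretches of Erg and 2 of 955 of Gata4 were shared, and 0 in the other 8 genes. Besides Lyl1, genes on the opposite strand overlapped exons of Sox17 (Gm37587), Maf (Gm15655) and Prox1 (Prox1os, with 1 count over the 6 libraries).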

How the data were processed

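Gene expression was measured in 6 Lexogen QuantSeq libraries made from 500 ng of total RNA, 3 per group. Per the submitters' processing notes, the authors used bcl2fastq 2.20.0.422, fastp, STAR and HTSeq with the build GRCm39. The other versions and options, the annotation release, strand setting and any use of molecular identifiers were not given in the sources used here. Raw whole-number counts per gene symbol were deposited by the authors, with 8323809 to 10792531 counts per library.

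Counts were fitted in edgeR 4.0.16 (R 4.3.3) with filterByExpr (minimum count 10, minimum total 15), TMM factors, glmQLFit and glmQLFTest, treatment being the sole term. The 12776 tested genes, all 10 members among them, were adjusted together by Benjamini-Hochberg with a threshold of 0.05. Shares and ratios of counts were compared with exact permutation tests (scipy 1.17.1). The members and lists were chosen with earlier results of these data known. The text names all members, for each other list the 2 most abundant genes and the 2 of smallest p (given for the lists of endothelial factors, partners, endothelial, lymphatic, stellate and macrophage genes), the relatives Gata2 and Gata6, and the 3 genes most like the most abundant member. Lrat, Gfap, Ngfr, Des, Hhip, Clec4f, Timd4, Ccl21a, Gfi1b, Meis1, Ep300, Tek and Kit lie outside this rule and were chosen after their values were seen. The edgeR fit was tested on simulated counts, and the permutation test and its adjustment on small cases with known answers. A planned result was left out of the text. No pair of libraries was a copy of another (chi-square per degree of freedom of at least 5.54). The value columns carry the numbers 2 to 4 where the titles number replicates 1 to 3, and the titles' numbers are used. Numbers shared by replicates of the groups were not taken as pairs. Alternatives were DESeq2 1.42.0, limma-voom (limma 3.58.1), other scaling and filters, a replicate block and libraries left out. RefSeq and GENCODE M21 are of the build GRCm38, so no coordinates other than those of promoter windows are given.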

Additional observations from a re-analysis of the deposited data

How the results depend on the processing

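Of 140 alternative values of the members' log2 fold changes, 126 kept their direction and 14 turned, and none passed. Sox17 turned with DESeq2 size factors and DESeq2's test (0.0007 each), library size only (0.0045) and over libraries left out in turn (−0.067 to 0.11). Lyl1 turned with limma-voom (0.0073) and over libraries left out in turn (−0.15 to 0.20), as did Sox18 (−0.77 to 0.074) and Maf (−0.24 to 0.0195). Without both vehicle replicate 2 and APB-R3 replicate 1, Sox17 was at 0.045, Lyl1 at 0.36 and Maf at 0.0081. The members' median ran from −0.13 to 0.06.

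Of all genes, 0 passed, against 20 with no filter on low counts and 0 to 1 with 1 library left out (1 without vehicle replicate 3), none of them members. The cause was not tested.

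Of 80 alternative log2 ratios to pan-endothelial markers 10 turned, and of 42 family shares 7. With 1 library left out, the ratio ran from −0.21 to 0.027 for Erg, −0.026 to 0.12 for Sox17, −0.61 to 0.049 for Sox18, −0.075 to 0.22 for Lyl1 and −0.16 to 0.023 for Maf. Without both libraries named above, that of Maf was 0.0051. With 1 library left out, the share difference in percentage points ran from −4.19 to 2.78 for Fli1, −1.47 to 2.96 for Sox17, −5.76 to 0.012 for Sox18 and −3.05 to 0.86 for Lyl1. Without both libraries it was 2.82 for Fli1 and 1.86 for Lyl1.

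With a replicate block 0 members and 0 of all genes passed, Sox18 had a log2 fold change of −0.35 (edgeR adjusted p = 0.8161, over all alternatives at least 0.8138) and unadjusted p = 0.00237 and Fli1 unadjusted p = 0.0233, and 539 genes against 425 had an unadjusted p under 0.05. The correlation of deviations between libraries of the same number was 0.022, 0.027 and 0.048, below 0.1. Each library was most like the one of its own number, but values this small do not show pairs, and no pairing is stated. In 7 of the 14 alternatives 1 to 3 members had an unadjusted p under 0.05 (Sox18 in 5, Fli1 in 4, Sox7 in 2, Erg, Gata4 and Maf in 1 each). Of all tested genes in those 7, from 368 of 13129 (without vehicle replicate 2) to 674 of 13137 (without APB-R3 replicate 3) did so. The alternatives refit the same libraries, so these counts are not repeated support. Counts were fewest for Lyl1 and Prox1, at 40 to 132 per library.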
